A study of Caenorhabditis elegans with 2 samples.

Results

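NHR-237 is one of the nuclear hormone receptors of Caenorhabditis elegans, transcription factors that bind DNA through zinc fingers. The regions described here are autosomal one-strand promoter regions from a list of regions deposited for it. A region belonged to them if its summit lay from 1000 bp upstream to 200 bp downstream of annotated 5′ ends of protein-coding transcripts, with all such genes on the same strand, and if it was among the 5000 regions of highest signal. They numbered 1227 of the 26787 regions in the list that the authors made from both replicates together (the pooled list), and 1227 of the 6032 autosomal regions that met the same position rule at any rank. The other 4805, ranked below 5000, served as the comparison. The pooled list includes background by design, so members and comparison regions need not be called peaks. The members were chosen by pooled signal, so signal, rank and presence in the other lists describe the choice and are given without a test, whereas members and comparison met the same rule on chromosome, window, gene type and strand, and signal alone set them apart. Sequence and the further position and arrangement of genes within that rule were not used.

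The data are chromatin immunoprecipitation and sequencing (ChIP-seq) of whole L4 larvae, the last larval stage, as 1 group of 2 biological replicates. The strain was OP228, genotype unc-119(ed3) III; wgIs228, a transgenic line with GFP and FLAG fused to the C terminus of NHR-237, grown as a pool of males and females. All samples thus carried the unc-119 allele and the transgene, chromatin was sheared by sonication, and no group without the tag was analysed here. In whole animals, binding in more cells and more binding per cell cannot be told apart, and the replicates share 1 strain.

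Nuclear receptors bind short DNA half-sites, of which AGGTCA is the best known, and the worm genome encodes an unusually large family of them. Most worm promoters are compact and lie directly upstream of the gene. Many transcripts are trans-spliced, which replaces their first bases by a short leader, so that an annotated 5′ end often follows a splice acceptor (AG) rather than the true start of transcription. Genes in a row on one strand can be transcribed together as an operon, and the downstream transcripts then receive the leader SL2.

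Sequence was read from 100 bp before to 100 bp after each summit (the window), and 16 short motifs were counted in it on both strands. The sequences below are shown because they carry the motifs that separated the members from lower-ranked regions. They are from the RefSeq copy of WBcel235 (ce11), written 5′ to 3′ in the direction of the target gene. Capitals mark matches on either strand to the GA repeat GAGAGA, to the motif CTGCGTC and to the CG palindrome, which is GCGCGC. On the strand of the gene a match to the other strand reads as the reverse complement, so the GA repeat can appear as TCTCTC. Windows that touched an annotated UTR were passed over. The first, centred 217 bp upstream of sec-61.G (the gamma subunit of the Sec61 protein translocation channel), holds CTGCGTC running directly into TCTCTC. The window of hlh-11 (a basic helix-loop-helix transcription factor) holds the GA repeat on the strand of the gene, opposite to that of sec-61.G. The windows of zfp-1 (the worm AF10 homologue), eelo-2 and hsp-1 (the constitutive Hsp70 chaperone) hold CTGCGTC, the CG palindrome or both.
sec-61.G (chrV:10897260-10897460, minus strand): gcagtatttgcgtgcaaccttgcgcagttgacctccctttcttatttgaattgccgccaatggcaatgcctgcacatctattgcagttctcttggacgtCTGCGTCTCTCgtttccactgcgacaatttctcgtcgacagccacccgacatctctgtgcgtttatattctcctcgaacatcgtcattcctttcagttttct
hlh-11 (chrIII:9619307-9619507, plus strand): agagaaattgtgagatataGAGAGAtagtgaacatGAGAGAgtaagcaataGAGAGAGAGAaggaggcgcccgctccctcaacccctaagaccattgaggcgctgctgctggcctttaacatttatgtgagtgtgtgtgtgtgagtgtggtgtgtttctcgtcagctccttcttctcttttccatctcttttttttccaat
zfp-1 (chrIII:8802071-8802271, plus strand): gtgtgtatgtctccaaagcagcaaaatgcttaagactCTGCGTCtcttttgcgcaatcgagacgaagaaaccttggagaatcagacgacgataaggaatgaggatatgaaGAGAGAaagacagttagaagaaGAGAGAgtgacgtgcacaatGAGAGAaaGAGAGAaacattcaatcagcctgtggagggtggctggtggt
eelo-2 (chrIV:17249823-17250023, plus strand): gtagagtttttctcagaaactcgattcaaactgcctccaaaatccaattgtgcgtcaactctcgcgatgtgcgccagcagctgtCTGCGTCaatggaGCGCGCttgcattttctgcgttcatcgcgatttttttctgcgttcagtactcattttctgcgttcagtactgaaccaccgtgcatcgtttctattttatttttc
hsp-1 (chrIV:17278514-17278714, plus strand): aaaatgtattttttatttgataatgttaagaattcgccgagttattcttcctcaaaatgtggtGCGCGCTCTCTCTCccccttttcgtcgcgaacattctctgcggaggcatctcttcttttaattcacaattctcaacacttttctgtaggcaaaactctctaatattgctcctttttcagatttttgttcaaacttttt

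The highest signal was found at the promoter of a ribosomal protein gene. Signal here is the value the authors deposited for a region, on a scale that the labels and files do not state. The region of rpl-3 (large-subunit ribosomal protein L3), the member of highest signal, had a pooled signal of 199.7, with 133 in the list of replicate 1 and 65.3 in that of replicate 2. The region 161 bp upstream of cdc-48.1, which encodes the AAA ATPase CDC-48 (p97), had 139.3 in the pooled list, 88.3 in replicate 1 and 50.2 in replicate 2. Both regions were thus high in both replicates, and replicate 1 gave the larger value. The next region, at another large-subunit ribosomal protein gene, rpl-35, had a pooled signal of 115.7, 61.3 in replicate 1 and 51.8 in replicate 2. The histone H4 gene his-37 had 97.2, 50.8 and 47.6 in the same order of lists. Histone genes are a multigene family, so reads may be shared with near-identical copies and this value is uncertain. The region of sec-61.G had 86.2, 47.5 and 29.2.

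**Figure D1:**
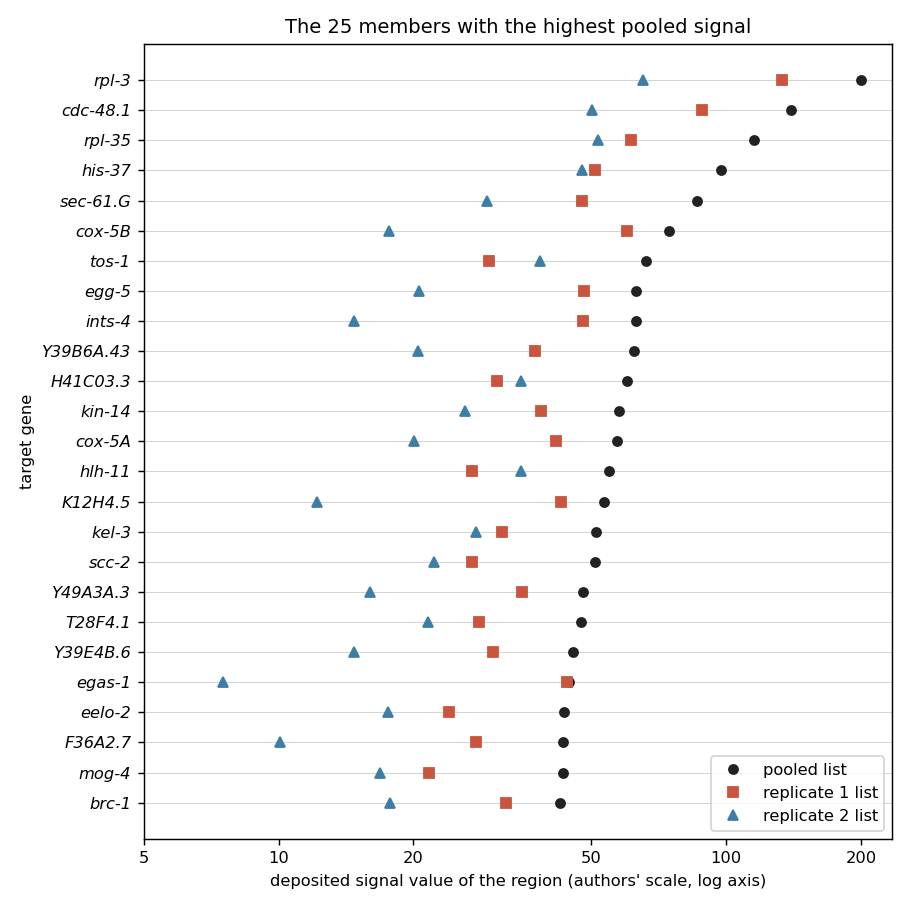
Deposited signal (horizontal, log axis, authors' scale) of the 25 members of highest pooled signal, one row per target gene, in the pooled list (circles), the replicate 1 list (squares) and the replicate 2 list (triangles). Pooled values run from 199.7 at rpl-3 to 42.6 at brc-1, and egas-1 shows the widest gap between replicates, 44.1 against 7.49.

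The other strongest members had targets of many kinds. The promoters of cox-5B and cox-5A, which encode subunits of cytochrome c oxidase, had pooled signals of 74.4 and 57.1. For cox-5B replicate 1 gave 60.2 and replicate 2 gave 17.7, and for cox-5A the values were 41.6 and 20.04. The order of the replicates was turned at 3 of the 25: tos-1, whose transcript is a known reporter of alternative splicing (29.6 in replicate 1, 38.5 in replicate 2), hlh-11 (27.1 and 34.8) and H41C03.3 (30.8 and 34.9). At the other 22, which include ints-4 (a subunit of the Integrator complex), scc-2 (the cohesin loader), mog-4 (a DEAH-box RNA helicase of splicing) and brc-1 (the BRCA1 homologue), replicate 1 was higher. Values of replicate 1 were larger in general. The median over members found in its list was 10.7, against 6.71 in replicate 2, and over lower-ranked regions 7.39 against 4.83. The 25 also include genes known only by a sequence name, such as K12H4.5 and T28F4.1.

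Over all members, the pooled signal ran from 12.7 to 199.7 with a median of 15.4. Lower-ranked regions of the class had a median of 8.85. The cut fell in a dense part of the list. The last 3 members, at Y37E3.17, mog-2 and Y69A2AR.1, had a pooled signal of 12.69 each and ranks 4994, 4996 and 4999. The first 3 regions of the class outside it, at Y39E4B.6, glh-3 and pck-2, had 12.68 each and ranks 5013 to 5015. The regions to either side of the cut were alike in signal, so the group has no natural edge.

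Presence in the other deposited lists is tied to the choice by signal, since the lists share reads. The authors' list of peaks that passed the irreproducible discovery rate procedure (IDR peaks) held 60 of the 1227 members, or 4.89% (exact 95% interval 3.75% to 6.25%). Of all pooled regions 0.885% were IDR peaks, and 18.7% were of rank 1 to 5000. Among all regions of rank 1 to 5000 the share of IDR peaks was 4.74%, close to that of the members. The other 1167 members were not IDR peaks. A member counted as found in a replicate's list if a region there overlapped it by at least 1 base. By that measure 1108 members were found in the list of replicate 1 and 922 in that of replicate 2. Both lists held 813 members, or 66.3% (63.5% to 68.9%), where 29.7% of all pooled regions were in both. Among all regions of rank 1 to 5000 the share in both was 62.5%. Replicate 1 alone held 295, replicate 2 alone held 109, and 10 were in neither list.

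The replicates ordered the members differently. Over the 813 members in both lists, Spearman's rho between the signals of replicates 1 and 2 was 0.14. Over the 1111 lower-ranked regions in both it was -0.01. Both sets were cut by the pooled signal, which was made from the same 2 replicates. Such a cut can lower the correlation, so these values do not measure the agreement of the replicates over the whole list. Each replicate's list holds 30000 regions and includes background by design, and the members in its own top 5000 numbered 668 for replicate 1, 476 for replicate 2 and 233 for both. The last 3 members before the cut were all missing from the list of replicate 2. For these reasons each comparison below was repeated with the whole rule applied to replicate 1 alone (1162 regions against 5392) and to replicate 2 alone (1231 against 5372). The pooled list was made from the same reads, so these are views of 2 samples, not further evidence.

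Members lay somewhat nearer to the annotated 5′ end than lower-ranked regions did. The median summit position was -290 bp from the 5′ end (negative is upstream), against -323 bp in the comparison. Summits from 0 to 300 bp upstream made up 35.8% of members (exact 95% interval 33.1% to 38.5%) and 30.8% of lower-ranked regions, a difference of 4.98 percentage points (95% Newcombe interval 2.03 to 7.99). In replicate 1 alone the difference was 7.81 points (4.83 to 10.9), and in replicate 2 alone 4.37 points (1.53 to 7.29). With the promoter window narrowed to 500 bp upstream and 100 bp downstream it was 3.53 points, with an interval, -0.29 to 7.28, that included 0. All 3 rankings with the full window gave a larger share close to the gene among the higher regions. These intervals treat regions as independent draws and cover counting error only, and regions of the same promoter are not independent.

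**Figure D2:**
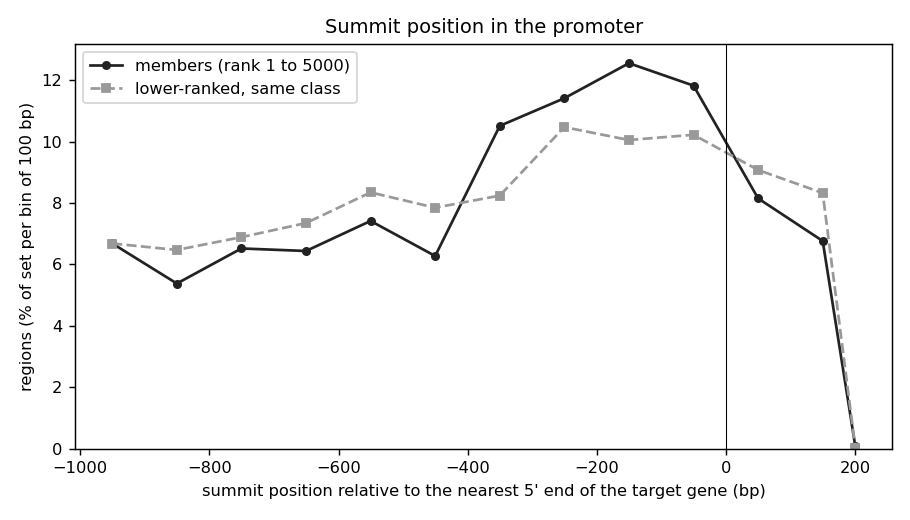
Share of regions per bin of 100 bp (vertical, percent of each set) by the position of the summit relative to the nearest 5′ end of the target gene (horizontal, bp, negative upstream), for the 1227 members (circles) and the 4805 lower-ranked regions (squares). The members peak at 12.6% in the bin from 200 to 101 bp upstream, where lower-ranked regions reach 10.1%; downstream of the 5′ end the order turns. The last bin holds the single position 200 bp downstream.

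Fewer members sat inside coding sequence. The summit was in a coding exon for 14.1% of members and 19.4% of lower-ranked regions, a difference of -5.26 points (-7.42 to -2.92). Replicate 2 alone gave -3.22 points (-5.53 to -0.75), whereas the interval of replicate 1 alone, -4.31 to 0.41 points, included 0. A gene other than the target covered the summit for 17.6% of members and 21.2% of the others, with intervals below 0 in all 3 rankings. Members were also more often in the central stretch of their chromosome, from 25% to 75% of its length (59.98% against 54.4%, a difference of 5.58 points, 2.48 to 8.63). That difference was 5.09 points in replicate 1 alone and 4.31 points in replicate 2 alone, again with intervals above 0, and 5.72 points for rank 1 to 1000 with an interval (-0.22 to 11.4) that included 0. The middle of worm autosomes is known for conserved, broadly used genes, and the arms for expanded families.

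The genes behind the members differed in arrangement. A gene on the same strand ended within 500 bp upstream of the target's 5′ end, the spacing of genes in a row, for 318 members. That is 25.9% (23.5% to 28.5%), against 21.04% of lower-ranked regions, a difference of 4.88 points (2.23 to 7.64). The difference was 3.67 points (1.07 to 6.42) in replicate 1 alone and 2.70 points (0.17 to 5.37) in replicate 2 alone. The looser question, whether the nearest gene upstream was on the same strand at any distance, gave 66.4% and 65.9%, with an interval from -2.51 to 3.41 points. With the limit at 250 bp the close-neighbour difference was 1.03 points (-1.07 to 3.29), and at 1000 bp it was 5.63 points (2.65 to 8.66). It was therefore seen at 500 and 1000 bp and was not detectable at 250 bp or for same-strand neighbours in general. With the 500 bp limit, the share was 23.3% at rank 1 to 237 and 26.85% at rank 2501 to 5000. Just below the cut, at rank 5001 to 10000, it was 22.9%. The share was thus not largest at the highest ranks.

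The bases AG directly preceded the annotated 5′ end, as at a trans-splice acceptor, for 37.7% of members and 31.9% of lower-ranked regions. The difference was 5.79 points (2.81 to 8.83), and each replicate alone gave an interval above 0. Annotated 5′ ends that coincide with the start codon, which is how a transcript without a known 5′ UTR appears, were less common among members, at 21.5% against 27.8% (difference -6.25 points, -8.80 to -3.55). Both differences bear on how far the annotated 5′ end can be taken as the start of transcription, and the distances above carry that limit.

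Members behind a close same-strand neighbour were unlike the rest. Their summits lay at a median absolute distance of 154 bp from the 5′ end, against 350 bp for the other 909 members; a short gap between genes leaves less room, and that part was not tested. AG preceded the 5′ end in 48.1% of them and 34.0% of the others. Their windows held GAGAGA in 16.4% of cases against 26.7%, a difference of -10.4 points (-15.1 to -5.13). TTTCAG, the sequence of the worm splice acceptor, went the other way, with 42.1% against 29.2% (12.99 points, 6.88 to 19.2). For both motifs the replicates alone gave the same sign with intervals that excluded 0. The TTTCAG split was also present in lower-ranked regions, with 42.6% against 34.8% (7.84 points, 4.46 to 11.3), and in those of both replicates alone. Among lower-ranked regions the GAGAGA shares of the same groups were 12.4% and 13.7%, a difference of -1.34 points whose interval, -3.54 to 1.08, included 0, whereas in replicate 1 alone it was -2.97 points (-5.02 to -0.72). Whether either split differed between members and lower-ranked regions was not tested. These splits were chosen after the motif values had been seen.

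The sequence around the summit was richer in G and C. Median GC content over the window was 37.8% in members (quartiles 32.8% and 43.3%) and 34.8% in lower-ranked regions (30.4% and 39.8%), so the distributions overlap widely. Windows with at least 45% GC made up 19.5% of members and 9.37% of the others, a difference of 10.1 points (7.83 to 12.6). The difference was 8.31 points in replicate 1 alone and 7.71 points in replicate 2 alone. GC content can affect the yield of a sequencing library, and its part in the signal was not tested.

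The GA repeat showed the largest difference in share of the 16 motifs. GAGAGA was in the window of 295 members, 24.0% (21.7% to 26.5%), and of 645 lower-ranked regions, 13.4% (12.5% to 14.4%). The difference was 10.6 points (8.11 to 13.3), with 8.83 points in replicate 1 alone (6.34 to 11.5) and 8.80 points in replicate 2 alone (6.39 to 11.4). Between 40% and 45% GC, the only band of GC content examined, the difference was 14.2 points (7.69 to 20.99). The median windows of both groups lay below that band, and the part of GC content in the difference was not tested. Of all pooled regions 13.4% held the motif. All 2080 6-mers were also counted with no prior choice, and GAGAGA had the largest excess of them. Among the next was CGTCTC, in 15.6% of members and 6.89% of lower-ranked regions, which overlaps the extended form of the motif described next. The largest deficit was that of AAAATT, in 58.2% and 68.7%, and the 5 lowest 6-mers consisted of A and T only. These 6-mers kept their sign in both replicates alone.

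**Figure D3:**
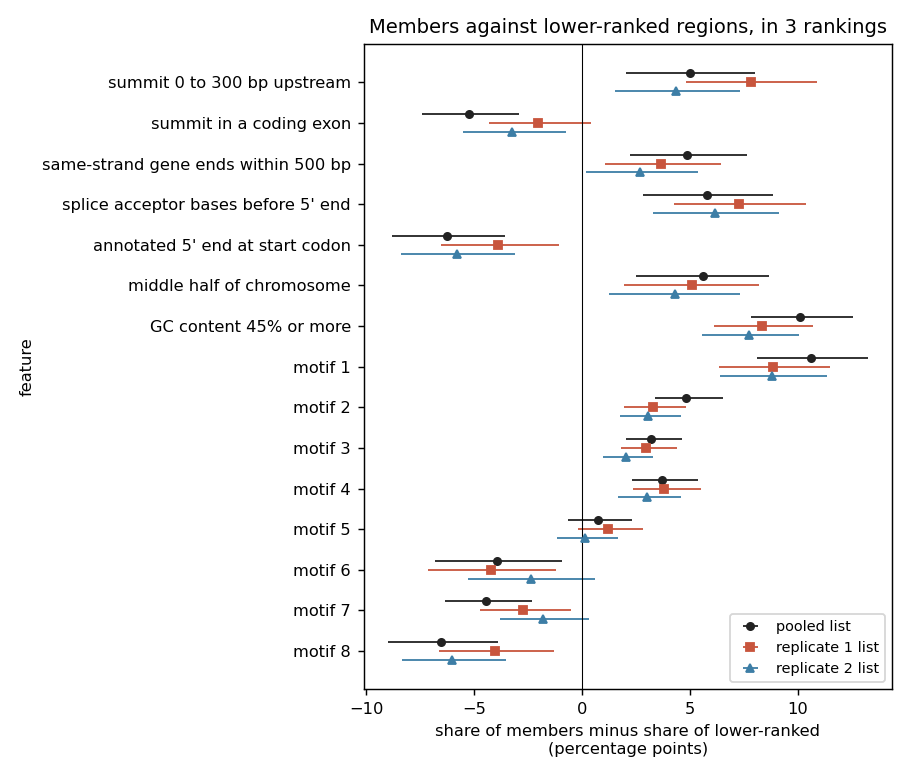
Share of members minus share of lower-ranked regions (horizontal, percentage points, bars 95% Newcombe intervals) for 15 features, in the pooled list (circles), replicate 1 alone (squares) and replicate 2 alone (triangles). Motif 1 is the GA repeat, motif 2 is CTGCGTC, motif 3 the CG palindrome, motif 4 its variant starting with GTG, motif 5 the nuclear receptor half-site, motif 6 the splice acceptor sequence, motif 7 the heat shock core and motif 8 the run of T. GC content of 45% or more and motif 1 lie farthest to the right, at 10.1 and 10.6 points in the pooled list, and motif 5 lies at 0.73 points with an interval across 0.

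CTGCGTC was less common and its shares differed by a larger ratio. It was in 93 members, 7.58% (6.16% to 9.21%), and 132 lower-ranked regions, 2.75% (2.30% to 3.25%), a difference of 4.83 points (3.39 to 6.504). Replicate 1 alone gave 3.27 points (1.96 to 4.83) and replicate 2 alone 3.05 points (1.76 to 4.56). In 69 of the 93 members the motif ran on as CTGCGTCTC, the form seen in the sec-61.G, zfp-1 and vha-19 windows, and this longer form was in 5.62% of members and 1.73% of lower-ranked regions (difference 3.896 points, 2.67 to 5.37). The GA repeat was in 58.1% of members with CTGCGTC and in 21.3% of members without it. Since the longer form can itself run into the GA repeat, the repeat was counted again with that stretch masked, which left 23.3% of members against 13.1% and a difference of 10.3 points (7.78 to 12.9). Masking the overlap therefore left most of the GA repeat's difference in place, and these counts were chosen after the 6-mers had been seen.

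The CG-rich motifs were rarer still. GCGCGC was in 62 members, 5.05%, and 1.85% of lower-ranked regions, a difference of 3.20 points (2.03 to 4.62). GTGCGC was in 7.17% and 3.46%, a difference of 3.72 points (2.29 to 5.37). Both had intervals above 0 in each replicate alone. At least 1 of the GA repeat, CTGCGTC and the CG palindrome was found in 30.2% of members and 16.5% of lower-ranked regions, so 856 members held none of them.

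The nuclear receptor half-site separated the groups little or not at all. AGGTCA was in 72 members, 5.87% (4.62% to 7.33%), and 5.14% of lower-ranked regions, and the interval of the difference ran from -0.63 to 2.30 points. The variant AAGTCA was in 8.39% and 8.10% (-1.34 to 2.14 points), and the core GGTCA in 17.6% and 17.1% (-1.79 to 2.98 points). In the pooled list differences within these bounds could not be told from none. With a promoter window of 500 bp upstream to 100 bp downstream the AGGTCA difference was 1.94 points (0.19 to 3.997), and with 2000 bp upstream it was 1.20 points (0.03 to 2.54), both with intervals just above 0. For the regions of rank 1 to 1000 it was 2.64 points (-0.03 to 6.403), and for rank 1 to 10000 it was -0.37 points (-1.50 to 0.80). The E-box (CANNTG and, as a palindrome, CACGTG), the CCAAT box, the cyclic AMP response element and the GATA site had intervals in the pooled list that included 0. An absent match says only that these letters were not in the window.

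Motifs rich in A and T, and the splice acceptor sequence, were less common in members. A run of 8 T was in 20.1% of members and 26.6% of lower-ranked regions (difference -6.51 points, -9.00 to -3.87), but between 40% and 45% GC the difference was 3.02 points in the other direction, with an interval across 0. GAANNTTC, the core of the heat shock element, was in 10.8% and 15.3% (difference -4.44 points, -6.36 to -2.33). TTTCAG was in 32.5% and 36.4% (difference -3.92 points, -6.83 to -0.93). In replicate 2 alone the intervals of GAANNTTC and TTTCAG included 0.

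The share of windows with the GA repeat or CTGCGTC was larger at higher ranks and did not change abruptly at rank 5000. GAGAGA was in 48.3% of the 60 members that are IDR peaks, which hold the highest ranks (35.2% to 61.6%). It was in 34.7% of the members from there to rank 1000, 23.9% from there to rank 2500 and 17.3% from there to rank 5000. Below the cut it was in 15.4%, 13.6% and 11.6% of the successive lower bins. The first members thus held it several times as often as the lowest regions, while members near the cut were close to the regions just below it. CTGCGTC fell from 20% to 13.1%, 7.44% and 4.14% over the same 4 bins of members, and was at 3.67% just below the cut. AGGTCA was in 6 of the 60 first members (10%, interval 3.76% to 20.5%), too few to tell it from the 4.69% of the last bin before the cut. Median GC content fell from 44.3% to 35.8% over the 4 bins, and the share with a summit in a coding exon rose from 3.33% to 18.2%.

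**Figure D4:**
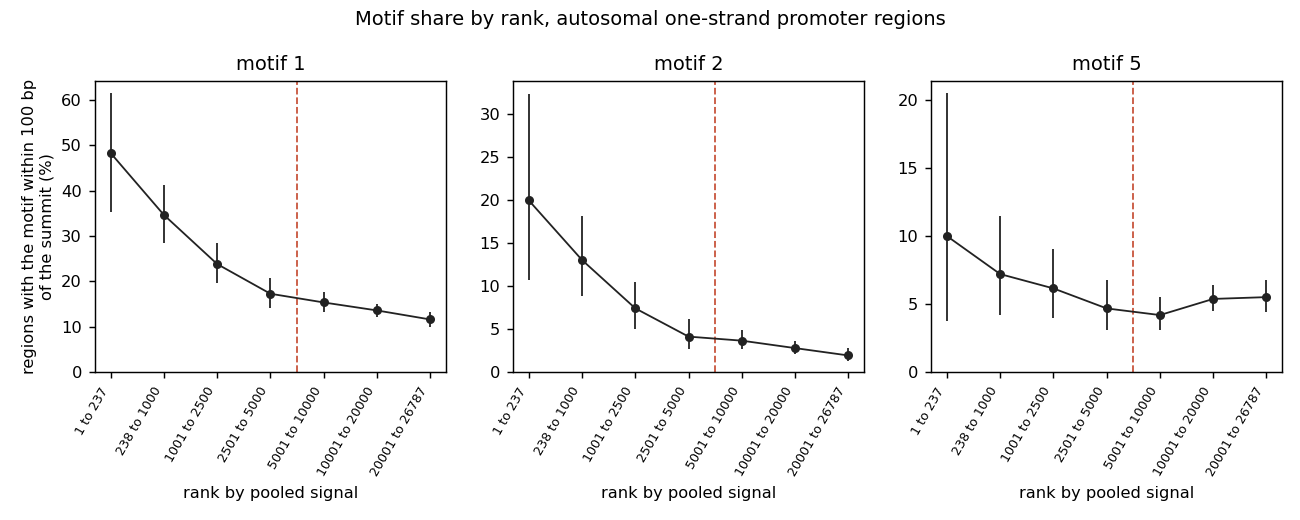
Share of autosomal one-strand promoter regions whose window holds a motif (vertical, percent, bars exact 95% intervals) in 7 bins of rank by pooled signal (horizontal), with the dashed line at rank 5000. Motif 1 is GAGAGA, motif 2 is CTGCGTC and motif 5 is AGGTCA; motifs 1 and 2 fall from 48.3% and 20% in the first bin to 11.6% and 1.95% in the last.

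The GA repeat had a preferred strand in the members and in lower-ranked regions alike. Among members with the motif on 1 strand only, 176 had GAGAGA on the strand opposite to the gene, so that the gene's own strand reads TCTCTC as in the sec-61.G window, and 93 had it on the gene's strand as at hlh-11. The opposite strand thus held 65.4% (59.4% to 71.1%). In lower-ranked regions it was 62.5% (58.5% to 66.3%), and the intervals overlap. On the strand of the gene, the windows of members averaged 20.5% C, 17.9% G, 32.8% T and 28.8% A. For lower-ranked regions the means were 18.6% C, 16.7% G, 33.7% T and 30.98% A. The part of base composition in the preferred strand was not tested. CTGCGTC was found on either strand equally, in 45 members each. TTTCAG was more often on the strand of the gene, where a splice acceptor would read so, in 221 members against 133.

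The repeat was concentrated near the summits of members. In bins of 50 bp from the summit, GAGAGA on the opposite strand started in 5.38% of members in the bin from 0 to 49 bp towards the gene and 5.95% in the next, against 2.85% in the bin from 500 to 451 bp away from it. On the gene's strand the bin from 50 to 1 bp before the summit had 3.10% and the far bin had 1.06%. The highest bin of the gene's strand lay from 200 to 151 bp before the summit, at 3.67%. Both strands were thus higher than in the far bin from about 200 bp before the summit to about 150 bp after it. That is near the reach of a region, since the median width was 340 bp. In lower-ranked regions the opposite strand had 2.60% in the bin before the summit and 2.41% in the far bin.

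**Figure D5:**
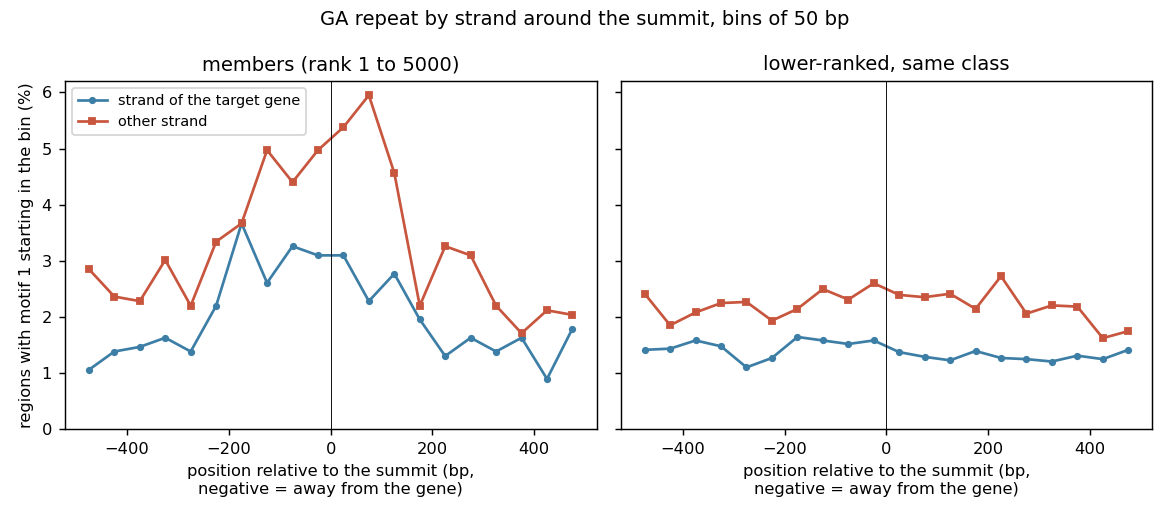
Share of regions with GAGAGA starting in each bin of 50 bp (vertical, percent) by position relative to the summit (horizontal, bp, negative away from the gene), on the strand of the target gene (circles) and on the other strand (squares), for members (left) and lower-ranked regions (right). In members the other strand reaches 5.95% beside the summit and 2.85% at the left edge; in lower-ranked regions both lines stay nearly level.

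The members' nearest 5′ ends belonged to 1132 genes, which is 6.57% of the 17242 protein-coding genes on autosomes. Of these genes 1050 had 1 member, 70 had 2 and 12 had 3 or more. The 12 were mostly regulators with several annotated transcripts. din-1, which encodes a corepressor of the nuclear receptor DAF-12, had 4 members with signals from 15.2 to 32.8. jun-1 (the Jun transcription factor), zfp-1, egl-4 (a cGMP-dependent protein kinase), kin-1 (the catalytic subunit of protein kinase A), par-1 (a polarity kinase) and eel-1 (a HECT ubiquitin ligase) had 3 each. For 345 of the 1132 genes a lower-ranked region had the same target. Genes with more annotated 5′ ends have more windows, and the part of that in these counts was not tested.

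Gene lists were counted as shares of their autosomal genes, to be read against that 6.57%. No test was made, since the lists and the members were chosen with results of these data known. Of 79 cytosolic ribosomal protein genes 16 were targets of a member (20.3%), and a further 12 were targets of lower-ranked regions only. By replicate 1 alone 13 were targets, and by replicate 2 alone 9. After rpl-3 and rpl-35 the highest was rps-28 (small-subunit protein S28), with a pooled signal of 41.2, 30.1 in replicate 1 and 4.99 in replicate 2. Of their 17 member regions 4 held GAGAGA, a share near that of all members. Mitochondrial ribosomal protein genes were targets in 7 of 66 cases, led by mrpl-55 (27.6), mrpl-28 (24.8) and mrpl-23 (21.3). Genes of the respiratory chain and ATP synthase were targets in 7 of 46 cases: cox-5B, cox-5A, cyc-2.1 (cytochrome c, 35.0), cox-6A, cyc-1 (cytochrome c1), cox-4 and nduf-7. All 8 member regions of that list were found in both replicate lists. The cox-6A regions, 964 and 764 bp upstream, overlapped each other and matched the same region in each replicate list. They also lay near a gene annotated as snRNA.

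The vacuolar ATPase, the proton pump that acidifies lysosomes and other compartments, had the largest share of any of the 30 lists. Of its 17 autosomal genes 8 were targets of members and none was a target of lower-ranked regions only. The highest was vha-13 (subunit A), with a pooled signal of 29.9, 12.3 in replicate 1 and 17.5 in replicate 2. vha-10 (subunit G) had 26.0, 13.4 and 21.02 in the same order, and vha-19 (the Ac45-like accessory subunit) 19.8, 9.86 and 8.29. The summits of the vha-13 and vha-10 regions lay 594 and 593 bp upstream of these targets, inside another gene. Both targets also had a same-strand gene ending within 500 bp upstream. Whether the signal there belongs to the vha gene or to the gene that covers the summit was not tested. The others, vha-2 and vha-11 (the proteolipid and subunit C), vha-16 (subunit d), vha-7 (subunit a) and vha-9 (subunit F), lay between 15.3 and 12.8, so none was among the strongest members. vha-7 was missing from the list of replicate 2 and vha-9 from that of replicate 1. By replicate 1 alone the count was 5 genes and by replicate 2 alone 6.

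GAGAGA was in 7 of the 8 vacuolar ATPase regions, all but that of vha-10, where all members together had 24.0%. This count was chosen after it was seen. The windows of vha-19 and vha-11 are printed to show the repeat there, as TCTCTC on the strand of the gene, with CTGCGTCTC as well at vha-19. Of the remaining autosomal genes of the pump, vha-1, vha-17 and vha-8 had both-strand promoter regions of rank 1 to 5000 with signals of 20.7, 29.4 and 27.6, vha-4 had one of low rank, and vha-3, vha-5, vha-6, vha-14 and vha-18 had no pooled region in their window.
vha-19 (chrIV:3368785-3368985, plus strand): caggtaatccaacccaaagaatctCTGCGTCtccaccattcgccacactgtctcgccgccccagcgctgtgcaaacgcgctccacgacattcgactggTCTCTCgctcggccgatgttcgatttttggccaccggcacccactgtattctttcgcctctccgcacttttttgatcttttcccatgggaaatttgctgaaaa
vha-11 (chrIV:2314611-2314811, minus strand): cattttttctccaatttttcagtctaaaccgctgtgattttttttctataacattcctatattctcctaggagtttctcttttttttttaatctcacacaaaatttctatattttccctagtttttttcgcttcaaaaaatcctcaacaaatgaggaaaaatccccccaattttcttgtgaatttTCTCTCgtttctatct

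Other lists of broadly used genes lay on both sides of the autosomal share. Vesicle traffic genes were targets in 11 of 90 cases (12.2%), with sec-61.G first, then vps-25 (a subunit of ESCRT-II, 23.0) and sec-24.1 (a COPII coat protein, 22.6). Chromatin regulators were targets in 8 of 69 cases, led by cbp-1 (the CBP/p300 acetyltransferase, 37.6). Translation factors were targets in 4 of 36 cases, splicing factors in 5 of 45, chaperones in 6 of 59 with hsp-1 first (35.1), and ubiquitin conjugation genes in 4 of 47, among them ubq-1 (polyubiquitin, 18.4). Aminoacyl-tRNA synthetases were targets in 1 of 32 cases (3.13%), cell cycle and replication genes in 4 of 77, led by pcn-1 (PCNA, 21.9), and histones in 2 of 76 (2.63%). No proteasome gene of 33 was a target, while 8 were targets of lower-ranked regions only.

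Large families expanded in worms were mostly below the autosomal share. Chemoreceptor genes were targets in 27 of 1181 cases (2.29%), with sre-23 (25.3), sru-35 (22.5) and str-206 (19.1) as the highest, and 184 were targets of lower-ranked regions only. F-box, MATH and BTB protein genes were targets in 6 of 395 cases, C-type lectins in 1 of 237, and insulins and neuropeptides in 2 of 107 (nlp-24 and nlp-79). Not all families were low. Xenobiotic enzymes were targets in 20 of 195 cases (10.3%), led by gst-27, a glutathione S-transferase (22.8), and cuticle collagens in 14 of 144 (9.72%), led by col-159 (21.6). The gst-27 region was missing from the list of replicate 2. Members of such families can be near-identical, so reads may be shared between copies.

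Transcription factors were close to the background. Nuclear hormone receptor genes were targets in 15 of 247 cases (6.07%), the strongest being nhr-34 (23.4), nhr-58 (22.5) and nhr-49 (21.97), a receptor that controls fat metabolism. The list also held nhr-23, which is needed for moulting, and nhr-85, a receptor of developmental timing. Their 17 member regions held GAGAGA in 9 cases and AGGTCA in none, where all members together had 24.0% and 5.87%. Homeobox, helix-loop-helix, zinc finger and bZIP genes were targets in 8 of 114 cases, with hlh-11 first, followed by ztf-7 (26.3) and ceh-19 (19.96), and 6 of their 9 regions held GAGAGA. In the share of regions with GAGAGA, other lists lay on both sides of that 24.0%. Above it were, for example, vesicle traffic (5 of 12), chaperones (3 of 6), chromatin regulators (3 of 8) and the respiratory chain list (3 of 8). Below it were, for example, chemoreceptors (5 of 29), xenobiotic enzymes (3 of 20), ion channels and neurotransmitter receptors (1 of 8) and translation factors (0 of 5). These motif counts by list were chosen after they were seen, and most rest on few regions. No member was a promoter of nhr-237 itself. Within 20000 bp of that gene the pooled list had 1 region, of rank 8893 and signal 10.7.

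Lists of tissue markers, most of them short, lay on both sides of the 6.57% over all autosomal genes. Of intestine markers 1 of 13 was a target (7.69%, eps-8), of body wall muscle 1 of 18 (5.56%, unc-22, twitchin), of hypodermis and seam 1 of 18 (5.56%, lin-26), of pharynx 1 of 23 (4.35%, pha-4) and of major sperm proteins 1 of 31 (3.23%). Neuron markers were targets in 3 of 20 cases (15%): unc-104 (a kinesin, signal 13.98), unc-31 (CAPS, 13.3) and egl-21 (carboxypeptidase E, 13.1). Germline markers were targets in 3 of 89 cases (3.37%), led by cgh-1 (a DEAD-box helicase, 20.03), and ion channels and neurotransmitter receptors in 8 of 126 (6.35%). The cgh-1 region was missing from the list of replicate 2, and that of egl-21 from the list of replicate 1. In a ChIP of whole animals these counts do not locate the binding in a tissue.

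Small RNA genes lay near some members. A gene annotated as snRNA was within 500 bp of the summit for 12 members (0.98%) and 3 lower-ranked regions (0.06%), a difference of 0.92 points (0.48 to 1.64). Replicate 1 alone gave 0.52 points (0.15 to 1.19) and replicate 2 alone 0.46 points (0.11 to 1.10). The regions assigned to egg-5 (needed for egg activation, pooled signal 62.99) and H41C03.3 (60.2) lay beside sls-2.4 and sls-2.1, genes of the SL2 leader RNA, and at 721 and 934 bp upstream of the assigned targets. For snoRNA genes the counts were 23 and 30 (difference 1.25 points, 0.57 to 2.19), and the strongest such member was at cmtr-1 (36.8), a cap methyltransferase gene. For tRNA genes (11 and 28) and miRNA genes (4 and 10) the intervals included 0. Some members therefore carry the name of a protein-coding gene although a small RNA gene is near.

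Compared with other regions of rank 1 to 5000, the members differed in some of 6 motifs, and in AGGTCA no interval excluded 0. The 277 one-strand promoter regions of the X chromosome held GAGAGA in 36.1% of cases, 12.1 points above the members (6.09 to 18.3). Replicate 1 alone gave the same order (29.2% against 22.5%), but in replicate 2 alone the X share was lower than that of members (16.2% against 22.1%, difference 5.86 points, 0.52 to 10.5). The order of X and autosomes thus turned with the replicate. TTTCAG was less common on the X, with 22.4% (10.1 points below the members, 4.28 to 15.4), and in both replicates alone. Lower-ranked regions showed the same order, with 36.4% on autosomes and 29.65% on the X (6.79 points, 3.375 to 10.05). Both replicates alone again gave intervals that excluded 0, so the TTTCAG gap between X and autosomes was not particular to the members. GTGCGC was in 10.8% of the X regions (members minus these, -3.66 points, -8.07 to -0.14), with intervals that included 0 in each replicate alone. CTGCGTC was in 7.22% of the X regions, and the interval of its difference, -3.55 to 3.335 points, included 0. The 264 autosomal promoter regions with genes on both strands held GCGCGC in 11.7% of cases, 6.69 points above the members (3.07 to 11.3), and in both replicates alone that share was also higher with an interval that excluded 0. They held GTGCGC in 17.8% (members minus these, -10.6 points, -15.9 to -6.20), again with intervals that excluded 0 in both replicates alone. GAGAGA was in 22.35% of them (members minus these, -4.18 to 6.92 points) and CTGCGTC in 7.955% (-4.50 to 2.77 points), close to the members' shares. For both motifs the intervals also included 0 in each replicate alone. Of all regions of rank 1 to 5000, which include the members, 21.6% held GAGAGA and 5.38% held CTGCGTC. Autosomal regions of the same ranks outside promoters held GAGAGA in 19.1% of cases, 4.91 points below the members (2.12 to 7.79). CTGCGTC was in 4.43% of them (3.15 points below, 1.54 to 4.93), GCGCGC in 2.63% (2.43 points below, 1.13 to 3.91) and GTGCGC in 4.12% (3.06 points below, 1.495 to 4.79). All of these had intervals that excluded 0 with the same sign in both replicates alone.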

How the data were processed

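ChIP-seq peak lists of 2 replicates of 1 group were used. Per the deposited text files, the authors derived each replicate's list from its alignments and a further file that also stands behind the control-normalized tracks, and the pooled list from both replicates' alignments. No label or file used here names the peak caller. The lists give the authors' signal per region, of unstated scale, used here to rank regions, and a deposited −log10 q-value, which was not used. The lists hold no read counts, so depth is unknown. They are on ce11, whose chromosome lengths match the WBcel235 reference. The members and gene lists were chosen with earlier results of these data known.

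Annotation was Ensembl release 115 and computations used Python 3.11.15 with pandas 2.3.3, numpy 2.4.6 and scipy 1.17.1. The target was the gene whose 5′ end was nearest. Shares carry exact (Clopper-Pearson) 95% intervals and their differences Newcombe 95% intervals, and no p-value over regions was computed. The class rule, distances, motif counts and intervals were tested on simulated data. Named genes were the targets of the 25 strongest members, the 3 to either side of the cut and up to 3 per list with at least 3 targets. Others were added after their values were seen. Sequences were to show the strongest member outside one chromosome for each of 4 motifs and for none of them, and further ones were added after the values were seen; some of these are not reported here. Tandem spacing, windows, ranks, flanks and overlaps were varied, as given in the closing section.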

Additional observations from a re-analysis of the deposited data

How the results depend on the processing

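No paired analysis was possible because there was 1 group. The lists limit these results: the signal scale and depth are unknown, 2 samples cannot measure the spread between worms, and no untagged strain was analysed here. Of 195 alternative values for 18 results, 150 stayed within the interval of the reported value, or within 1.5 times a count or within 1 SD of the replicates for a median, and 3 changed sign. The TTTTTTTT difference was 3.02 points between 40% and 45% GC, and the AGGTCA difference, whose interval included 0 as reported, was -0.25 points there and -0.37 points with the cut at rank 10000. With the cut at rank 1000, 2500 and 10000 there were 282, 672 and 2371 members. In that order, the GAGAGA difference was 23.1, 15.8 and 7.05 points, the CTGCGTC difference 11.3, 7.53 and 3.24 points, the difference in median GC 5.97, 4.48 and 1.49 points, and the share found in both replicate lists 89.7%, 77.5% and 52.9%. At rank 1000 the tandem difference was 1.81 points, with an interval across 0, and that for summits 0 to 300 bp upstream 10.9 points. With a limit of 250 bp for tandem genes their difference was 1.03 points. The vacuolar ATPase genes among the targets numbered 3 at rank 1000 and 4 at rank 2500. With the rule on 1 replicate's list at a time, the CTGCGTC difference was 3.05 to 3.27 points, the median GC difference 1.99 to 2.49 points and the vacuolar ATPase genes 5 to 6. With 50 bp to either side of the summit the GAGAGA difference was 6.796 points and the median GC difference 3.96 points, and with 150 bp the latter was 2.33 points. Between 40% and 45% GC the GAGAGA difference was 14.2 points. With the longer upstream window, the median GC difference was 2.49 points and the share in both replicate lists 63.5%. That share was 39.9% where summits had to lie within 100 bp and 54.9% where each region had to be overlapped by at least 50%. The GAGAGA difference kept its sign with an interval above 0 in all 14 alternatives, and the CTGCGTC difference in all 13. Except for the numbers of members, which follow from the rank cut, the cause of these shifts was not tested.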
